A study of Mus musculus with 16 samples.

Results

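The immediate early AP-1 genes are a set of 10 genes, namely *Fos*, *Fosb*, *Fosl1*, *Fosl2*, *Jun*, *Junb*, *Jund*, *Egr1*, *Ier2* and *Ier3*. They were picked by symbol from the 54532 genes counted in each library, and all 10 were present. RNA sequencing was performed on 16 cultures of jejunal enteroids, epithelial organoids grown from crypts of adult mice and then kept in differentiation medium. There were 4 cultures in each of 4 groups, and per the study each culture of a group came from its own mouse. MYO5BΔIEC enteroids carried *Vil1-CreERT2* with *Myo5b* flox/flox, so that Cre under the epithelial villin promoter removed *Myo5b*, the motor that carries recycling endosomes to the apical membrane. MYO5B(G519R) enteroids carried *Vil1-CreERT2* with 1 floxed allele and 1 G519R allele, which leaves the point mutant as the remaining copy. Both models received 4-OH-tamoxifen at 1 µM for 24 h in culture. A separate set of MYO5BΔIEC cultures then received Compound-1, an agonist of the lysophosphatidic acid receptor LPAR5, at 100 nM for 2 days, and the other MYO5BΔIEC cultures received PBS. Below, treated and untreated model cultures are those with and without Compound-1. Control enteroids are listed as untreated in the labels, and the study's methods derive them from the same *Vil1-CreERT2* and *Myo5b* flox/flox genotype as MYO5BΔIEC, with ethanol as the vehicle for 4-OH-tamoxifen. Elsewhere the study calls them healthy littermates, so it is not settled whether they carried Cre. An effect of the drug and an effect of the lost MYO5B cannot be told apart here.

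Immediate early genes are transcribed within minutes of a stimulus, without new protein synthesis, when kinases such as ERK, JNK and p38 act on factors that already sit at their promoters. Proteins of the FOS family pair with proteins of the JUN family through leucine zippers to form AP-1, which binds DNA and adjusts growth, survival, migration and stress responses. In the intestinal epithelium AP-1 genes are known to respond to growth factors, wounding and the handling of the tissue.

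The promoters are shown first for 4 members, those of the 7 read whose windows held a match to TGACG, TGACATCA or TATAAA. The windows of *Fosl2*, *Jund* and *Ier3* held none of these. TGACG and TGACATCA are textbook entry points of kinase signaling and can be read directly. Each run is the 150 bases before the RefSeq start site in GRCm38.p6, on the strand of the gene, with matches to TGACG, TGACATCA and TATAAA in capitals and matches to GGGCGG, which are counted only, left in lower case. *Fos* (chr12:85473740-85473889, plus strand) held TGACG, the core of a cAMP response element, at −129 to −125 and at −66 to −62, and TATAAA at −33 to −28. *Fosb* (chr7:19310046-19310195, minus strand) held TGACG at −60 to −56, and *Junb* (chr8:84978749-84978898, minus strand) held it at −106 to −102. *Jun* (chr4:95052223-95052372, minus strand) held TGACATCA, a site known to bind JUN dimers, at −45 to −38.
*Fos*: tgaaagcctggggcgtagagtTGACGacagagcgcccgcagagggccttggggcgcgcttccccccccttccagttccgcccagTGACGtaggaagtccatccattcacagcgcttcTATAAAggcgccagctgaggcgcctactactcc
*Fosb*: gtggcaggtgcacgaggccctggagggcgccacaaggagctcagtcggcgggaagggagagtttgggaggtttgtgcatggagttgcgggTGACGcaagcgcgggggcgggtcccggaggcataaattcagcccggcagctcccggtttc
*Jun*: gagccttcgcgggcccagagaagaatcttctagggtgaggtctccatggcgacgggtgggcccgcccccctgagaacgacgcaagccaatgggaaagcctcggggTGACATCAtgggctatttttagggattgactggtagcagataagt
*Junb*: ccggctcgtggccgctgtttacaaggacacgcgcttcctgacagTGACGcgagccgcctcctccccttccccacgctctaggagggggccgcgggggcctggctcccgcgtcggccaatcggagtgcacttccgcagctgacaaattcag
RefSeq promoters of 7 members were read, *Fosl1* and *Ier2* had no entry, and *Egr1* was left out. Both strands were searched. TGACG was found in 3 of the 7 windows and in 13.3% of all 32851 promoters of the same length, and TGACATCA in 1 of the 7 and in 2.32%. Neither the full TGACGTCA, which contains TGACG and occurred in 1.36% of promoters, nor the AP-1 site TGANTCA, which occurred in 4.24%, was found in the 7 windows. GGGCGG, the GC box, was found in 5 of the 7 and in 28.6%, while TATAAA was found in 1 of the 7 and in 7.57%. The CArG box, the site of serum response factor, was found in 0 of the 7 and in 0.916%. Sites farther upstream than 150 bases, or in *Egr1*, were not searched, so these counts do not show that a gene lacks a site. The start sites of *Fosl2* and *Jund* in RefSeq lie 671 and 1210 bases from the starts in the deposited annotation. Their windows may therefore miss the promoter in use.

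Libraries held 27804968 to 40101729 counts. *Myo5b* itself was detected in every culture, at 160 to 230 CPM (counts scaled to a common library total) among controls, 136 to 173 among MYO5B(G519R) cultures, 101 to 169 among MYO5BΔIEC cultures and 87.2 to 149 with Compound-1. The epithelial marker *Vil1* averaged 385 CPM in control. Among 6 immune cell markers, *Adgre1* was at 0 in every culture, and the list summed to between 1.47 and 3.40 CPM, most of it *Itgam*. Of 7 fibroblast markers, *Dcn* and *Col3a1* were at 0 in every culture, and the summed level, most of it *Vim*, was 38.8 CPM in control culture 1 and 15.4 to 15.9 in the other controls. Fibroblast sums of MYO5BΔIEC cultures ran from 9.34 to 43.7, those of MYO5B(G519R) cultures from 12.8 to 18.9 and those with Compound-1 from 9.47 to 43.6. Control culture 1 stood apart from the other 3 controls. The summed CPM of 12 enterocyte markers was 4337 in it and 15158 to 19024 in the others, that of 6 Paneth cell markers 3244 against 6648 to 7738, and that of 6 tuft cell markers 70.3 against 21.7 to 28.8. Mitochondrially encoded genes took 6.41% of its counts, 9.07% to 10.4% in the other controls and 3.79% to 6.63% in the 12 model cultures, treated ones included. The TMM factors moved with them, at 0.845 to 0.879 in the other controls and at least 1.00 in control culture 1 and the model cultures. With mitochondrial genes left out of the library sizes, the number of members called in each comparison was the same. The comparisons with control are therefore given with it and without it. The counts of *Myo5b* cover the whole gene and not the floxed part alone.

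At the level of single genes, the JUN side outweighed the FOS side in control enteroids. Levels of different genes are compared here as FPKM, the authors' values scaled to gene length and library size. In control, *Ier2* stood highest at 55.9 ± 30.8 FPKM (mean ± SD, n = 4), followed by *Jund* at 32.3 ± 5.57, *Junb* at 32.0 ± 2.65, *Ier3* at 18.4 ± 7.08 and *Jun* at 11.7 ± 3.60. *Fosl2* followed at 7.05 ± 2.94, then *Fos* at 6.14 ± 4.01, *Egr1* at 2.82 ± 1.69, *Fosl1* at 0.705 ± 0.294 and *Fosb* at 0.0376 ± 0.00354. The ranges of mean ± SD overlapped for *Jund* and *Junb* and for *Fosl2* and *Fos*, and the order within these pairs differed between control cultures. The ranges also overlapped for *Ier2* and *Jund*, *Ier3* and *Jun*, *Jun* and *Fosl2*, and *Fos* and *Egr1*. In those pairs the first gene was nevertheless the higher one in each of the 4 control cultures. *Fosb* was near the floor, with 6 to 8 counts in each control library.

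**Figure D1:**
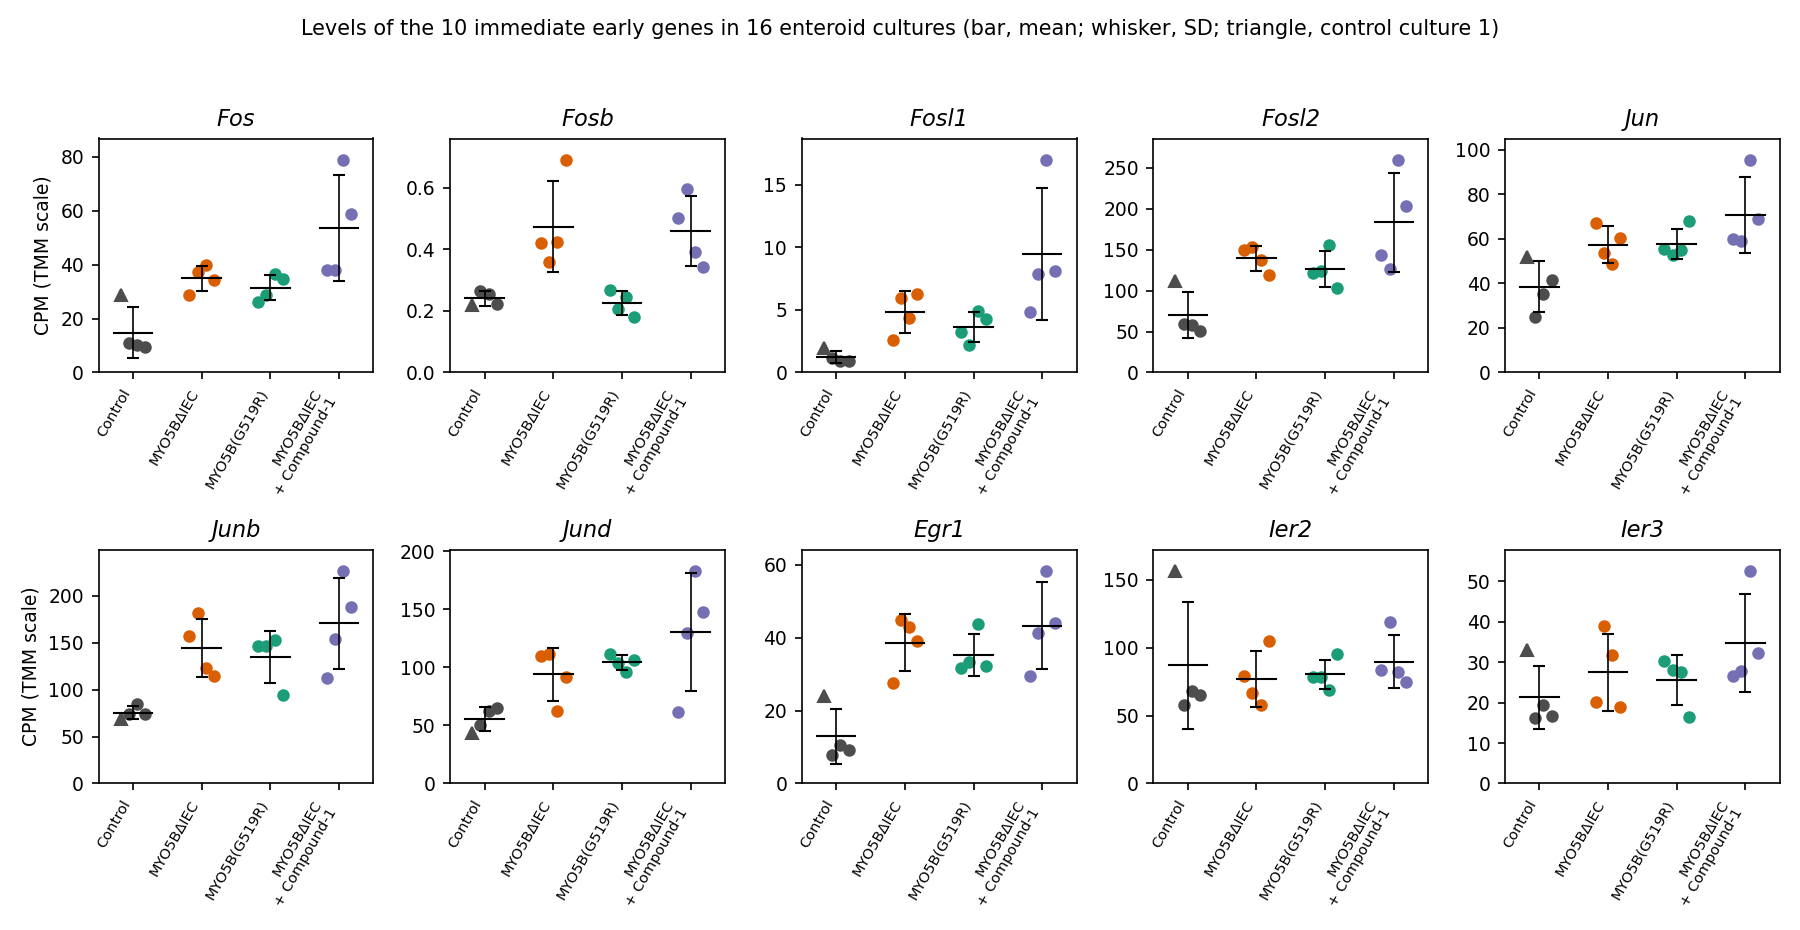
CPM (y axis, linear, from 0) of each of the 10 genes in the 4 cultures of each group, with the mean as a bar and the SD as a whisker. Control culture 1 (triangle) is the highest control for 7 of the 10 genes, and for *Ier2* it lies above all 8 untreated model cultures.

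The first question was whether loss of MYO5B moved these genes, and most of them were higher in both models. In MYO5BΔIEC, 6 of the 10 genes, *Fos*, *Fosl1*, *Fosl2*, *Junb*, *Jund* and *Egr1*, rose against control at an edgeR adjusted p under 0.05, and none fell. Among all 17951 genes tested, 13.5% rose and 13.8% fell. In MYO5B(G519R), the same 6 genes rose of 9 tested, and none fell. Among 17829 genes tested there, 13.1% rose and 13.7% fell. The median log2 fold change of the tested members was 0.96 in MYO5BΔIEC and 0.86 in MYO5B(G519R), and that of all genes tested was −0.01 and −0.05. Both models were compared with the same 4 control cultures, so their results are not independent. RNA per culture cannot separate fewer cells of a type from less RNA per cell.

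*Egr1*, a zinc finger factor induced through ERK, was separated from control in both models, narrowly at control culture 1. Its level was 24.1, 7.81, 10.6 and 9.11 CPM in control cultures 1 to 4, 27.6, 45.0, 43.1 and 39.0 in MYO5BΔIEC, with 31.7, 33.2, 43.8 and 32.2 for MYO5B(G519R). Every model culture was above every control culture, and control culture 1 came nearest to them. The log2 fold change was 1.59 ± 0.334 (SE) in MYO5BΔIEC (edgeR adjusted p = 0.00686) and 1.45 ± 0.329 in MYO5B(G519R) (edgeR adjusted p = 0.0113).

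*Fosl1* (chr19:5447703-5455945, plus strand, GRCm38) encodes FRA-1, a FOS protein without the strong activation domain of FOS and a known partner of JUN in migrating epithelium. It was measured at 1.94, 1.20, 0.897 and 0.889 CPM in control, at 2.61, 5.99, 4.39 and 6.30 in MYO5BΔIEC, with 3.25, 2.19, 4.92 and 4.28 for MYO5B(G519R). The groups did not overlap, although the gene was low throughout, with 24 to 62 counts per control library. The log2 fold change of *Fosl1* was 1.97 ± 0.362 in MYO5BΔIEC (edgeR adjusted p = 0.00401), or 3.92-fold, with an interval of 2.25- to 6.82-fold. It was 1.57 ± 0.347 in MYO5B(G519R) (edgeR adjusted p = 0.0102).

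*Fos*, the founding member of the family, depended on which controls were used. It was at 28.8, 10.8, 10.03 and 9.37 CPM in control, at 28.8, 37.1, 39.8 and 34.3 in MYO5BΔIEC, with 26.3, 28.7, 36.5 and 34.6 for MYO5B(G519R). Control culture 1 lay inside the range of the models, and the other 3 controls lay below all 8 model cultures. The log2 fold change was 1.25 ± 0.337 in MYO5BΔIEC (edgeR adjusted p = 0.0199) and 1.09 ± 0.345 in MYO5B(G519R) (edgeR adjusted p = 0.0414). With 1 culture left out at a time, *Fos* stayed past the threshold in 3 of 8 fits in MYO5BΔIEC, and it was lost without any 1 of control cultures 2, 3 and 4 and MYO5BΔIEC cultures 2 and 3, at a log2 fold change of 1.09 to 1.22 in those fits and edgeR adjusted p values of 0.0533 to 0.0609. In MYO5B(G519R) it stayed in 1 of 8 fits, the one without control culture 1, and in the others the log2 fold change was 0.93 to 1.17 with an adjusted p of 0.0637 to 0.11.

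*Fosl2* encodes FRA-2, and its FPKM made up on average the largest share of the FOS family in control (gene at chr5:32135801-32157842). It stood at 112, 59.5, 57.5 and 50.8 CPM in control, 149, 153, 137 and 119 in MYO5BΔIEC, with 122, 124, 156 and 104 for MYO5B(G519R). All MYO5BΔIEC cultures were above all controls, whereas MYO5B(G519R) culture 4 fell below control culture 1. *Fosl2* rose by a log2 fold change of 1.01 ± 0.235 in MYO5BΔIEC (edgeR adjusted p = 0.0109) and 0.86 ± 0.245 in MYO5B(G519R) (edgeR adjusted p = 0.0283). The first call held in 8 of 8 fits that left out 1 culture, the second in 2 of 8, those without control culture 1 and without MYO5B(G519R) culture 4, and its log2 fold change was 0.73 to 0.88 in the others. *Fosb* had a log2 fold change of 0.97 ± 0.457 in MYO5BΔIEC and did not pass (edgeR adjusted p = 0.138), at 12 to 23 counts per library, and it was too low to be tested in MYO5B(G519R).

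Among the JUN genes, *Junb* and *Jund* rose in both models. *Junb*, a JUN protein that often restrains proliferation, was at 68.8, 74.4, 84.8 and 74.5 CPM in control, 157, 182, 123 and 115 in MYO5BΔIEC, with 147, 147, 153 and 94.0 for MYO5B(G519R). Neither model overlapped control, and control culture 1 was the lowest control for this gene rather than the highest. The log2 fold change was 0.94 ± 0.168 in MYO5BΔIEC (edgeR adjusted p = 0.00358) and 0.84 ± 0.160 in MYO5B(G519R) (edgeR adjusted p = 0.00569). *Jund* (chr8:70698949-70700616), the most steadily expressed JUN gene in many tissues, was at 43.8, 50.3, 62.6 and 65.0 CPM in control, 110, 111, 62.7 and 91.8 in MYO5BΔIEC, with 112, 104, 96.0 and 107 for MYO5B(G519R). MYO5BΔIEC culture 3 lay among the controls, and the MYO5B(G519R) cultures lay above all of them. *Jund* rose by 0.77 ± 0.205 in MYO5BΔIEC (edgeR adjusted p = 0.0193) and by 0.92 ± 0.139 in MYO5B(G519R) (edgeR adjusted p = 0.00276) on the log2 scale. The first call was lost without control culture 2, at a log2 fold change of 0.73 (edgeR adjusted p = 0.0568), and without MYO5BΔIEC culture 1, at 0.68 (edgeR adjusted p = 0.058), or 2, at 0.67 (edgeR adjusted p = 0.0641).

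*Jun*, whose protein is the usual partner of FOS, was at 51.9, 24.7, 35.3 and 41.6 CPM in control, 67.2, 53.7, 48.5 and 60.3 in MYO5BΔIEC, with 55.4, 52.5, 54.8 and 67.9 for MYO5B(G519R). Only MYO5BΔIEC culture 3 among the 8 model cultures was below control culture 1. The log2 fold change was 0.59 in both models, with an SE of 0.211 and 0.204, and neither passed (edgeR adjusted p = 0.0603 and 0.0575). *Jun* lay close to the threshold, and it passed in both models with DESeq2 (adjusted p = 0.0381 and 0.0262), with all 4 groups in 1 edgeR fit (adjusted p = 0.0351 and 0.0398) and with the gene length trend removed (edgeR adjusted p = 0.0409 and 0.043), at log2 fold changes of 0.58 to 0.63. No overlap with control, in the direction of higher levels, was seen for 5 members in each model. In MYO5BΔIEC these were *Fosb*, *Fosl1*, *Fosl2*, *Junb* and *Egr1*, where 13% of all genes tested were so separated. In MYO5B(G519R) they were *Fosl1*, *Jun*, *Junb*, *Jund* and *Egr1*, against 13.6%. *Fosb* held 6 to 8 counts in control. It passed the count filter (10 or more counts in at least 2 libraries) only through its MYO5BΔIEC libraries, so its separation was partly set by that filter.

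*Ier2* (chr8:84661331-84662852), a nuclear protein induced by growth factors, and *Ier3* (chr17:35821684-35822923), a regulator of survival and of ERK signaling, did not pass in either model. *Ier2* was at 157, 57.8, 68.1 and 65.4 CPM in control, 78.9, 66.4, 57.4 and 105 in MYO5BΔIEC, with 78.5, 78.3, 68.9 and 95.1 for MYO5B(G519R). Control culture 1 was above all 8 model cultures, and the remaining controls lay below the MYO5B(G519R) cultures and among the MYO5BΔIEC cultures. The log2 difference of *Ier2* was −0.17 in MYO5BΔIEC (interval −0.86 to 0.52, edgeR adjusted p = 0.729) and −0.12 in MYO5B(G519R) (interval −0.77 to 0.54, edgeR adjusted p = 0.808). *Ier3* was at 32.9, 16.2, 19.4 and 16.6 CPM in control, 20.3, 39.0, 31.7 and 18.9 in MYO5BΔIEC, with 30.3, 28.1, 27.5 and 16.5 for MYO5B(G519R), and its groups overlapped. Its log2 fold change was 0.38 ± 0.289 (edgeR adjusted p = 0.365) and 0.27 ± 0.262 (edgeR adjusted p = 0.489).

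**Figure D2:**
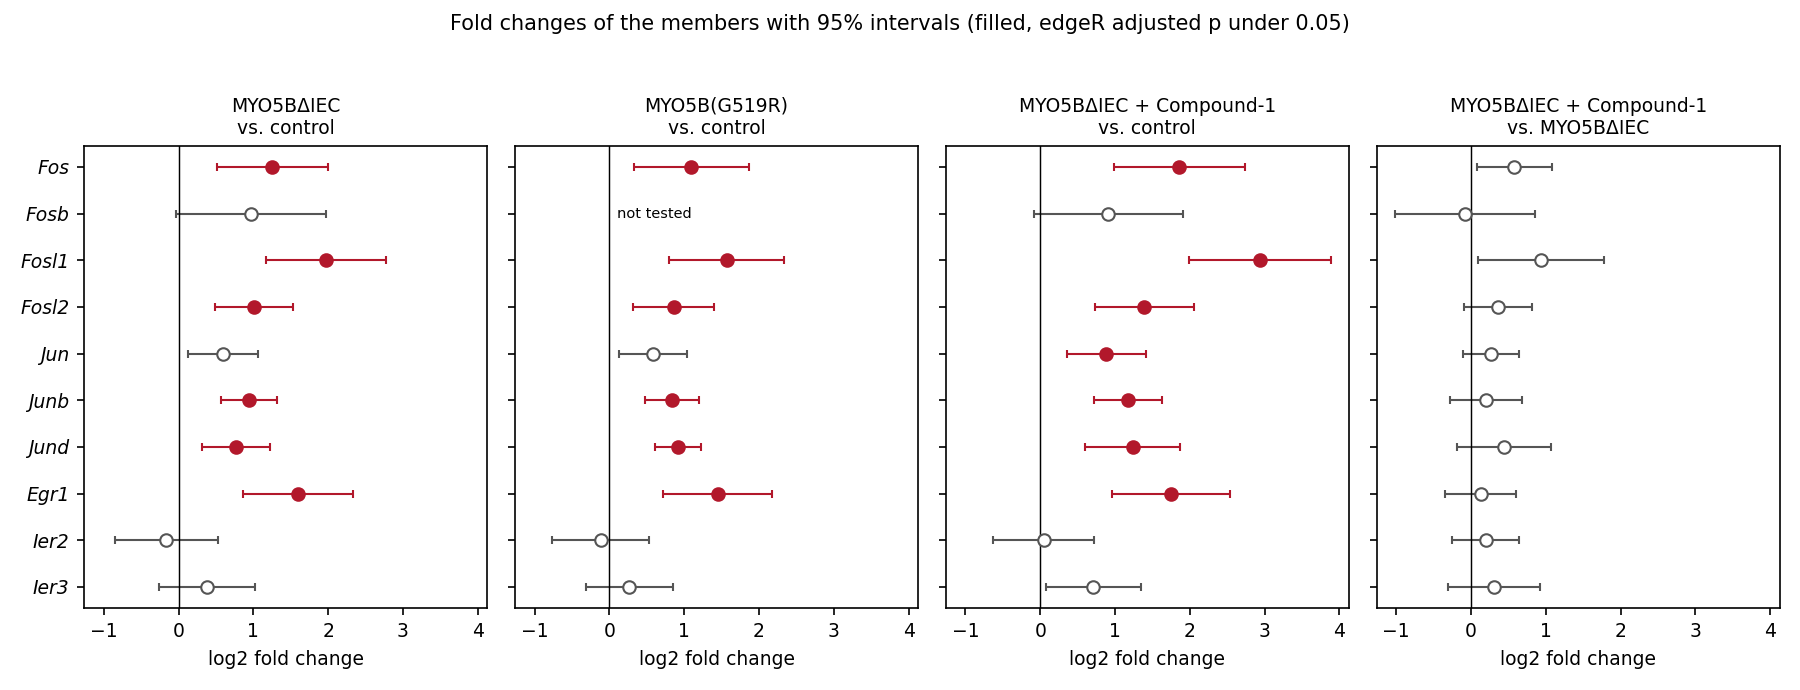
Log2 fold changes (x axis) of the 10 genes with 95% intervals in 4 comparisons, filled where the edgeR adjusted p is under 0.05. Filled points number 6, 6, 7 and 0 from left to right, and in the comparison with untreated MYO5BΔIEC only the intervals of *Fos* and *Fosl1* lie above 0.

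Leaving out control culture 1, a choice made after seeing the data, enlarged most of these differences. Relative to the mean of the other controls, this culture was at 2.86 times for *Fos*, 2.63 times for *Egr1*, 2.45 times for *Ier2*, 2.00 times for *Fosl2*, 1.95 times for *Fosl1*, 1.89 times for *Ier3* and 1.53 times for *Jun*. In contrast, it was the lowest control for *Fosb*, *Junb* and *Jund*, at 0.884, 0.883 and 0.738 times. Such departures were not limited to the members, since 38.9% of the 17951 genes tested were higher there than in each of the other 3 controls and 40.7% were lower. Without it, 8 of 10 members passed in MYO5BΔIEC and 9 of 9 in MYO5B(G519R), and over all genes tested 3767 of 17783 and 4244 of 17647 rose. *Fos* then rose by 1.80 ± 0.15 (edgeR adjusted p = 3.65e-05) and 1.68 ± 0.138 (edgeR adjusted p = 3.57e-05), *Jun* by 0.77 (edgeR adjusted p = 0.00606) and 0.80 (edgeR adjusted p = 0.00262) and *Ier3* by 0.67 (edgeR adjusted p = 0.0482) and 0.59 (edgeR adjusted p = 0.0309) on the log2 scale. *Ier2* changed sign, to 0.28 in MYO5BΔIEC (edgeR adjusted p = 0.259) and to 0.36 in MYO5B(G519R) (edgeR adjusted p = 0.0234). *Fosl1*, *Junb* and *Egr1* passed in all 8 fits that left out 1 culture in each model.

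**Figure D3:**
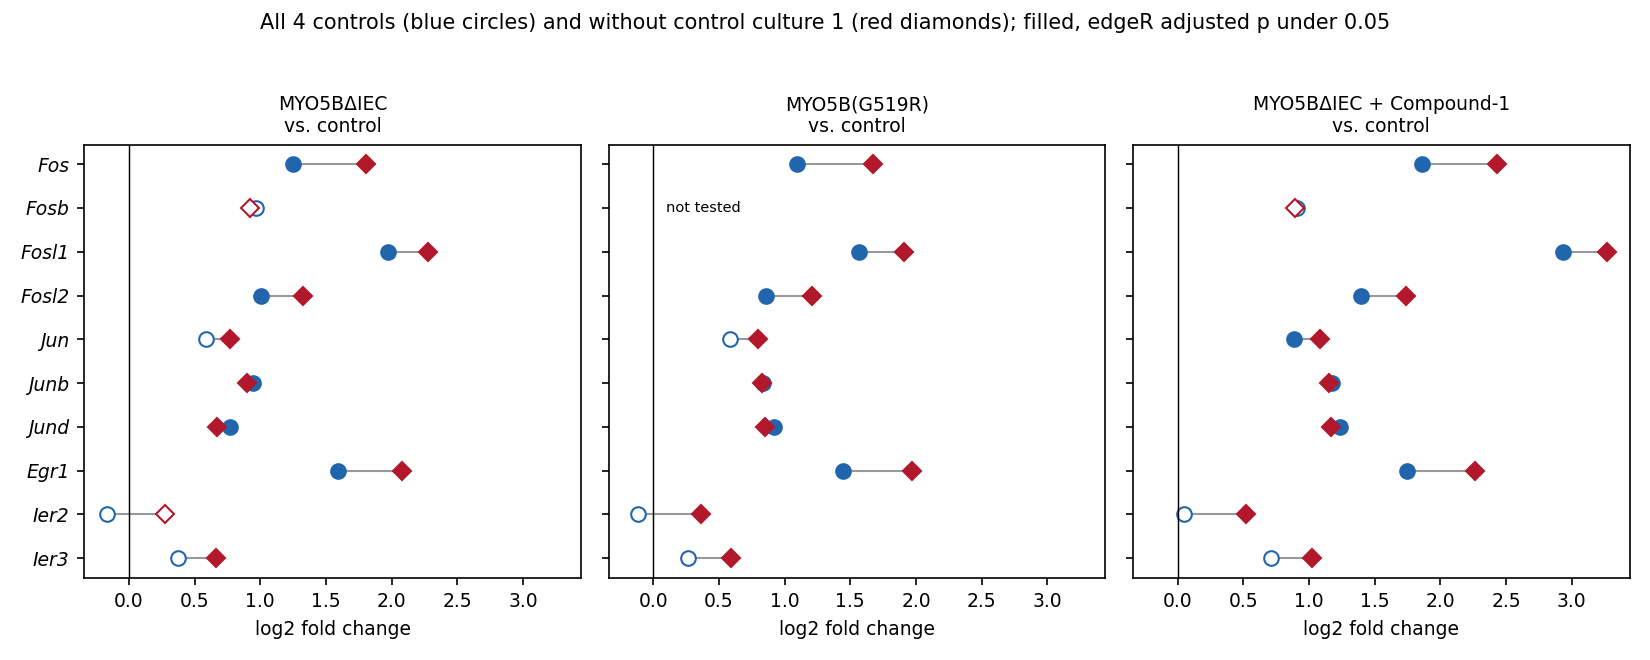
Log2 fold changes (x axis) against all 4 controls (circles) and against the 3 controls other than culture 1 (diamonds), filled where the edgeR adjusted p is under 0.05. *Fos*, *Egr1*, *Fosl2* and *Ier2* move to the right, *Junb* and *Jund* move slightly to the left, and *Ier2* crosses 0 in the 2 left panels.

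Markers of cell types differed between the groups too. The summed CPM of enterocyte markers was 8529 to 15486 in MYO5BΔIEC and 7671 to 11465 in MYO5B(G519R), and of the 12 genes 3 were higher and 0 lower in the first and 2 higher and 1 lower in the second. Paneth cell markers summed to 3092 to 4472 and 3113 to 4063, and 2 of the 6 were lower in each model and 0 higher. Without control culture 1, enterocyte markers had 3 higher and 3 lower in MYO5BΔIEC and 2 and 5 in MYO5B(G519R), and 5 and 6 Paneth cell markers were lower. Stem cell markers had sums of 3881 to 7323 among controls, against 1847 to 3005 for MYO5BΔIEC cultures and 2153 to 3541 for MYO5B(G519R) ones, but *Olfm4* was the sole gene of the 6 that passed, at a mean of 777 and 1212 CPM against 3743 in control. The median log2 fold change of the list was −0.04 and 0.13, and *Axin2* was at 0.19 and 0.49 and *Lgr5* at 0.16 and 0.30. Without control culture 1, the stem cell list had 1 gene higher and 1 lower in MYO5BΔIEC and 3 higher and 1 lower in MYO5B(G519R). Goblet cell markers summed to 1787 to 2174 among controls, 2127 to 2499 among MYO5BΔIEC and 2112 to 2554 among MYO5B(G519R) cultures, with genes on both sides. *Fcgbp*, at a mean of 1229 and 1238 CPM against 461 in control, and *Clca1* were higher in both models, *Spink4* and *Agr2* were lower in both, and *Tff3* was lower in MYO5B(G519R). These marker genes were named after their values were seen. The part of cell composition in the levels of the members was not tested.

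The next question was whether Compound-1 moved these genes in MYO5BΔIEC enteroids. None of the 10 passed against untreated MYO5BΔIEC, and neither did any of the 18037 genes tested with edgeR (0%). At an unadjusted p under 0.05 edgeR counted 1355 genes, and DESeq2 called 48 higher and 43 lower, none of them a member. *Fos* and *Fosl1* had the largest differences among the members. *Fos* was at 38.1, 38.1, 79.0 and 59.0 CPM in treated cultures, of which 2 lay above all untreated ones, and its log2 difference was 0.58 ± 0.229 (interval 0.08 to 1.08, edgeR adjusted p = 0.612). *Fosl1* was at 4.83, 7.89, 17.0 and 8.13 CPM, of which 3 lay above all untreated ones, and its difference was 0.94 ± 0.386 (interval 0.09 to 1.79, edgeR adjusted p = 0.622). The other 8 members had log2 differences between −0.08 for *Fosb* and 0.44 for *Jund*. The interval for *Egr1* ran from −0.34 to 0.60 and that for *Junb* from −0.28 to 0.69.

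Treated culture 3 was the highest of its group for 8 of the 10 members. It was also the most deeply sequenced library, with 40101729 counts, and its goblet cell markers summed to 5987 CPM, the highest of its group, whose lowest was 2267. Treated culture 1 was the lowest of the group for 6 members. These ranks were counted over the members only and not over all genes. With treated culture 3 left out, *Fos* differed from untreated MYO5BΔIEC by 0.33 and *Fosl1* by 0.50 on the log2 scale.

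Against control, Compound-1-treated MYO5BΔIEC cultures had 7 of the 10 members higher and none lower, where 15.7% of 17937 genes rose and 13.7% fell. The same 7 of 10 did not overlap control, except that *Fosb* stood in place of *Jund*, and 14.3% of all genes were so separated. *Fosb* passed the count filter here only through the treated libraries, so its separation was partly set by that filter. *Fosl1* rose by 2.94 ± 0.428 on the log2 scale (edgeR adjusted p = 0.00398), or 7.66-fold. *Fos* rose by 1.86 ± 0.395 (edgeR adjusted p = 0.00842), and *Egr1*, at 29.4, 41.4, 58.4 and 44.0 CPM, by 1.75 ± 0.356 (edgeR adjusted p = 0.00748). *Fosl2*, at 144, 127, 260 and 204 CPM, rose by 1.39 (edgeR adjusted p = 0.00852). *Junb*, at 113, 154, 227 and 189 CPM, rose by 1.17 (edgeR adjusted p = 0.00482), and *Jund*, at 62.0, 129, 183 and 148 CPM, rose by 1.24 (edgeR adjusted p = 0.0113). *Jun*, at 59.8, 59.1, 95.4 and 68.7 CPM, rose by 0.88 (edgeR adjusted p = 0.0203), and it was lost without control culture 3 (edgeR adjusted p = 0.0624) or treated culture 3 (edgeR adjusted p = 0.0598). Treated culture 1 was the sole culture that overlapped control for *Jund*. *Ier3* had a difference of 0.71 (edgeR adjusted p = 0.085), *Ier2* of 0.05 (edgeR adjusted p = 0.926) and *Fosb* of 0.91 (edgeR adjusted p = 0.15). Without control culture 1, 9 of the 10 passed, with *Ier3* and *Ier2* among them, at 1.02 (edgeR adjusted p = 0.00777) and 0.52 (edgeR adjusted p = 0.035). In that fit 4056 of all 17718 genes tested rose.

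The models were also compared with each other. No member differed between MYO5B(G519R) and MYO5BΔIEC by edgeR, with 772 genes at an unadjusted p under 0.05 and 1 gene, *BC035947*, named after its value was seen, past adjustment (0.00557% of 17943), while DESeq2 called 1 gene higher and 3 lower. The widest difference was in *Fosb*, at 0.269, 0.207, 0.245 and 0.181 CPM in MYO5B(G519R) and 0.419, 0.360, 0.425 and 0.690 in MYO5BΔIEC. All MYO5B(G519R) values lay below all MYO5BΔIEC values, but they rest on 6 to 9 counts per library, and the log2 difference of −1.06 (interval −2.01 to −0.11) did not pass (edgeR adjusted p = 0.838). *Fosb* passed the count filter here only through the MYO5BΔIEC libraries. The other 9 members had log2 differences of −0.40 to 0.15. The narrowest intervals were those of *Jun*, from −0.27 to 0.28, and *Fosl2*, from −0.45 to 0.17.

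Summed within a family, the levels of every model culture, treated or not, were above those of all controls. The FOS family summed to 9.42 to 24.7 FPKM among controls, 29.0 to 35.7 among MYO5BΔIEC, 25.6 to 34.5 among MYO5B(G519R) and 33.0 to 70.8 among treated cultures. The JUN family summed to 68.2 to 83.0, 106 to 165, 124 to 148 and 102 to 240 FPKM in the same order. The share of *Fosl1* in the FOS sum was 5.22% ± 0.669 (SD, n = 4) for control, 8.72% ± 2.95 for MYO5BΔIEC, 7.40% ± 1.81 for MYO5B(G519R) and 11.4% ± 2.94 for treated cultures. That of *Fosl2* was 52.1% ± 4.02, 44.9% ± 5.58, 45.7% ± 5.00 and 40.4% ± 2.63. The shares within the JUN family overlapped between all groups, with *Junb* at a mean of 41.8% to 45.8% and *Jun* at 13.1% to 15.5%. These shares were not tested.

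**Figure D4:**
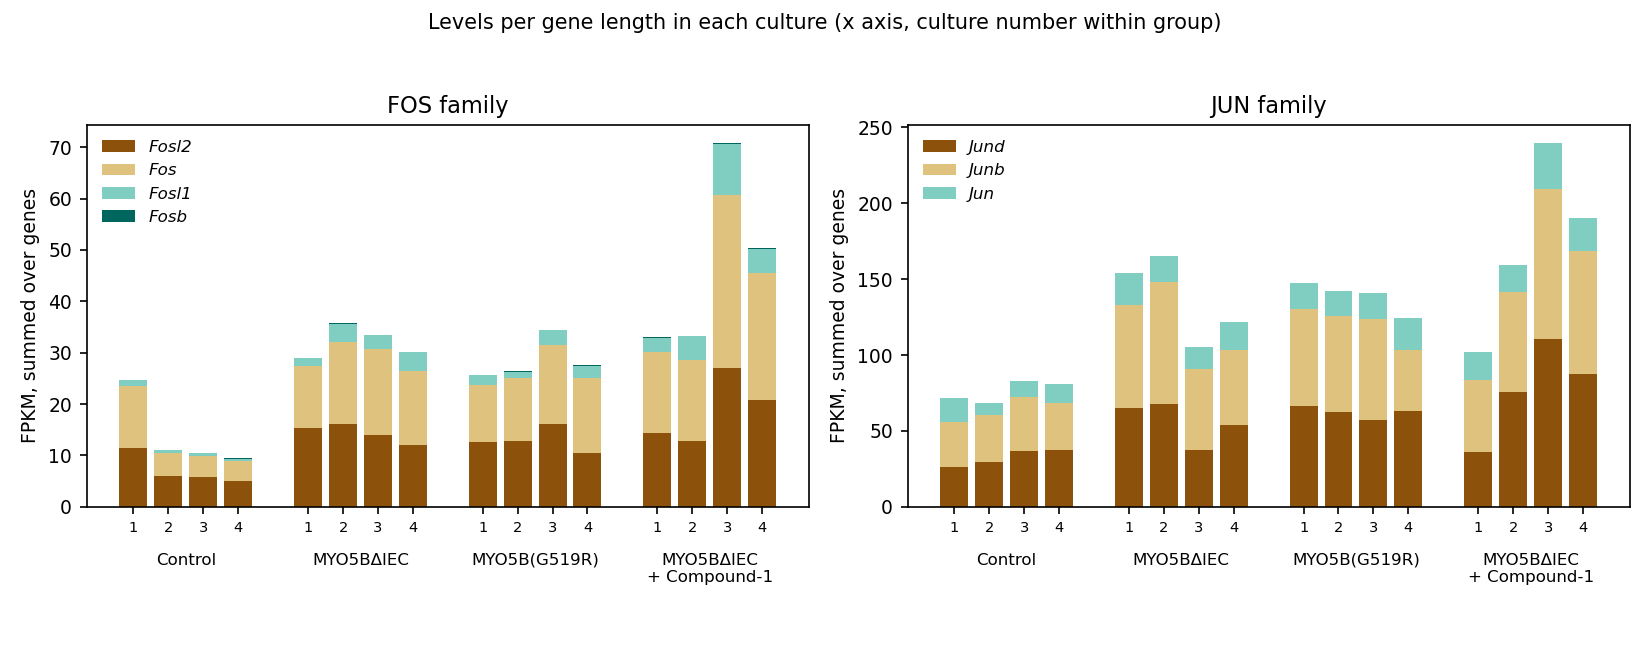
FPKM (y axis, from 0) summed over the FOS genes (left) and JUN genes (right) in each culture, with each gene as a segment and the culture number within its group on the x axis. Control culture 1 reaches 24.7 in the FOS family and 71.8 in the JUN family, and treated culture 3 is the tallest bar in both.

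Genes around AP-1 were grouped into lists by known role, chosen with earlier results of these data known. The list counts are therefore not an independent test. Genes past the threshold were mostly higher among other immediate early genes, upstream genes, feedback regulators and target genes. They lay on both sides among leucine zipper partners and heat shock genes. Against control, 13.5% of all genes tested rose in MYO5BΔIEC and 13.1% in MYO5B(G519R). Of 30 other immediate early genes, 28 could be tested in both models, and 14 rose in MYO5BΔIEC, 11 rose in MYO5B(G519R) and none fell, with 9 higher in both. *Ctgf*, a secreted matricellular protein, was at 2.35, 0.897, 2.08 and 1.59 CPM in control and 6.23, 15.9, 15.995 and 9.31 in MYO5BΔIEC, without overlap. It rose by 2.78 in MYO5BΔIEC (edgeR adjusted p = 0.00168) and by 2.47 in MYO5B(G519R) (edgeR adjusted p = 0.00458). The nuclear receptor *Nr4a1* rose by 1.41 (edgeR adjusted p = 0.0107) and 1.09 (edgeR adjusted p = 0.0201), the small GTPase *Rhob* by 1.33 (edgeR adjusted p = 0.00351) and 1.09 (edgeR adjusted p = 0.00409), and *Zfp36*, which speeds the decay of mRNAs with AU-rich elements, by 1.12 (edgeR adjusted p = 0.00144) and 0.96 (edgeR adjusted p = 0.00214). The median log2 fold change of the list was 0.82 and 0.67.

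Among 20 upstream kinases and factors, 6 rose in MYO5BΔIEC and none fell, while 8 rose and 1, *Mapk8* (JNK1), fell in MYO5B(G519R), a name given after the values were seen. *Elk3*, an ETS factor that works with serum response factor, was at 1.88, 0.565, 0.929 and 0.667 CPM in control and 3.41, 3.63, 5.52 and 2.79 in MYO5BΔIEC. It rose by 1.92 (edgeR adjusted p = 0.00666) and 2.05 (edgeR adjusted p = 0.00873). The coactivator *Mkl1* rose by 0.95 and 0.89, the receptor *Egfr* by 0.77 and 0.63 and the ERK-activated kinase *Rps6ka1* by 0.75 and 0.67. Among the 16 feedback regulators, which are made in response to the same signals and switch them off, 7 rose in MYO5BΔIEC and 8 in MYO5B(G519R), none fell, and 7 were higher in both. *Dusp6*, the ERK phosphatase, stood at 31.3, 27.0, 23.5 and 16.004 CPM in control and 49.5, 63.2, 67.2 and 53.4 in MYO5BΔIEC, and it rose by 1.26 (edgeR adjusted p = 0.00243) and 0.96 (edgeR adjusted p = 0.0183). The phosphatases *Dusp8*, *Dusp1* and *Dusp10* rose by 1.26, 1.15 and 1.09 in MYO5BΔIEC and by 1.13, 1.19 and 0.90 in MYO5B(G519R).

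Of 16 AP-1 target genes, 10 were tested, and 7 rose in MYO5BΔIEC and 5 in MYO5B(G519R), with none lower. *Plaur*, the urokinase receptor, which the study itself examined in these cultures, rose by 1.14 (edgeR adjusted p = 0.00784) and 1.04 (edgeR adjusted p = 0.0171), and the membrane-cytoskeleton linker *Ezr* by 1.11 (edgeR adjusted p = 0.00181) and 0.89 (edgeR adjusted p = 0.00484). The urokinase gene *Plau* rose by 2.85 (edgeR adjusted p = 0.015) and 2.71 (edgeR adjusted p = 0.0277), at 0 to 0.481 CPM in control and 1.02 to 2.34 in MYO5BΔIEC. In treated cultures *Plaur* was at 35.3, 62.9, 129 and 74.9 CPM, all above the untreated 26.1, 34.6, 27.6 and 34.0, and none of the list passed against untreated MYO5BΔIEC by edgeR, while DESeq2 called 1.

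Other leucine zipper partners were mixed, with 6 of 13 higher and 1 lower in MYO5BΔIEC and 3 higher and 2 lower in MYO5B(G519R). The lower gene in MYO5BΔIEC was *Creb1*, and in MYO5B(G519R) *Creb1* and *Atf4* were lower, both named after their values were seen. *Mafk*, a small MAF protein, rose by 0.70 (edgeR adjusted p = 0.00441) and 0.50 (edgeR adjusted p = 0.0137). *Maf* and *Batf2* rose by 1.14 and 1.13 in MYO5BΔIEC and had differences of 0.47 and 0.93 that did not pass in MYO5B(G519R), and the contrast between the models was not past the threshold for either of them. Heat shock genes were split as well, with 3 higher and 4 lower of 12 in MYO5BΔIEC and 3 and 3 in MYO5B(G519R). The inducible chaperones *Hspa1a* and *Hspa1b* rose by 2.23 and 1.93 in MYO5BΔIEC and by 2.11 and 1.90 in MYO5B(G519R), and the co-chaperone *Bag3* by 0.92 and 1.03, whereas the mitochondrial co-chaperonin *Hspe1* fell by 1.08 and by 0.80. *Hspa1a* and *Hspa1b* are near-identical copies, so the split of reads between them is uncertain.

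**Figure D5:**
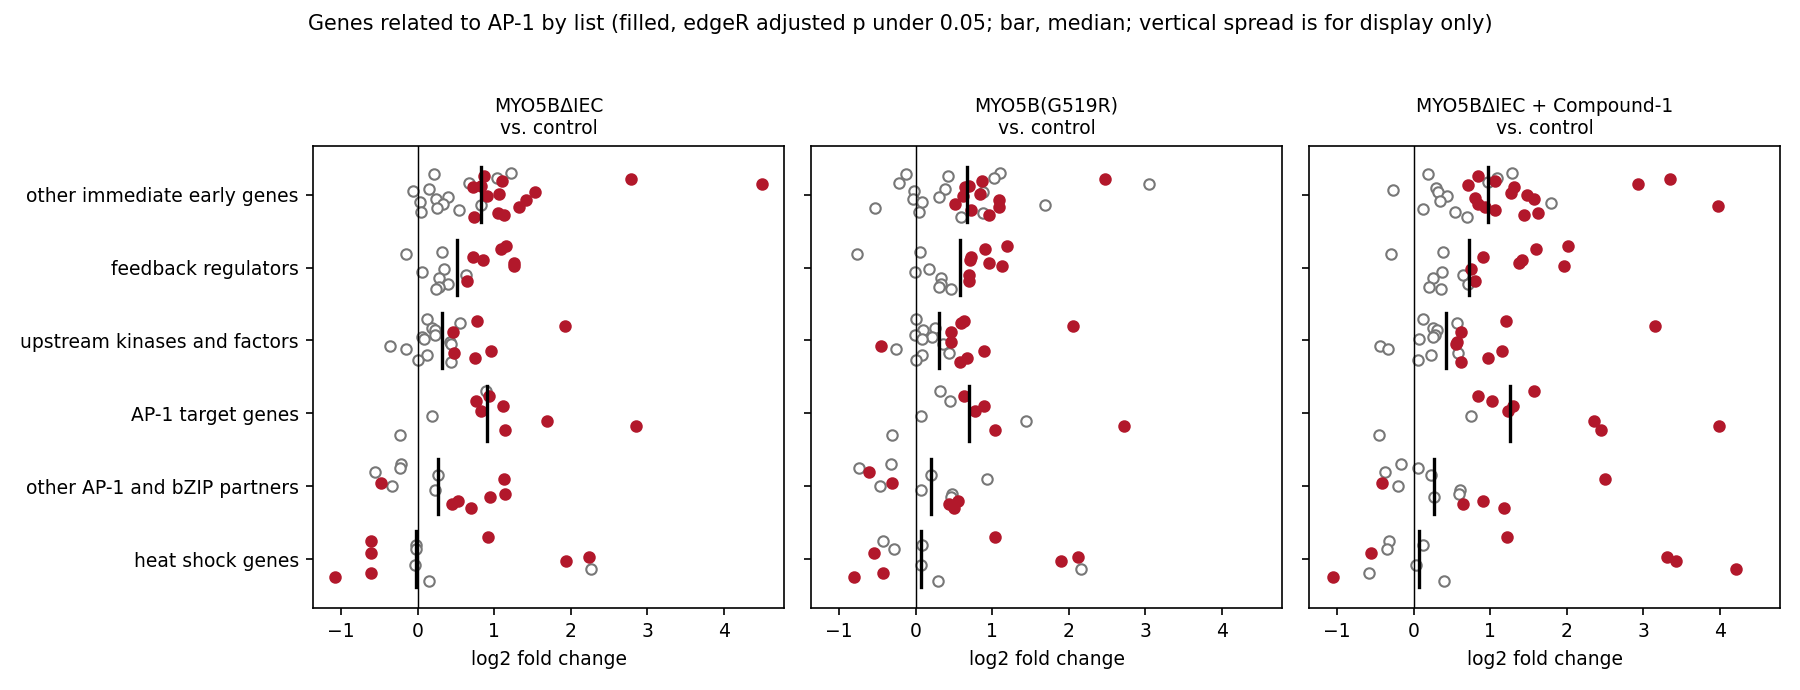
Log2 fold changes (x axis) of the tested genes of 6 lists against control, filled where the edgeR adjusted p is under 0.05, with the list median as a bar. Filled points lie to the right of 0 for immediate early genes, feedback regulators and target genes in the 3 panels, and on both sides for heat shock genes.

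The lists were also counted without control culture 1, a choice made after seeing the data. Then 22 other immediate early genes rose in MYO5BΔIEC and 20 in MYO5B(G519R), along with 12 and 13 of 15 feedback regulators, 12 and 14 of 20 upstream genes and 9 of 10 target genes in each. Over all genes tested, 3767 of 17783 and 4244 of 17647 rose in these fits. *Mapk8* was the 1 lower gene of these lists in each model. The leucine zipper partners had 8 and 5 genes higher and 1 and 2 lower, and the heat shock genes had 3 and 4 higher and 4 lower in each model. Control culture 1 was above all other controls for 18 of the 28 other immediate early genes, 13 of the 16 feedback regulators and 9 of the 10 target genes tested. Over all 17951 genes tested in MYO5BΔIEC against control, that share was 38.9%. In Compound-1-treated cultures against control, 16 of 29 other immediate early genes, 8 of 16 feedback regulators, 8 of 20 upstream genes and 8 of 10 target genes rose, and none of these lists had a lower gene. Of all 17937 genes tested in that comparison, 15.7% rose and 13.7% fell. The leucine zipper partners had 4 higher and 1 lower and the heat shock genes 4 higher and 2 lower. Without control culture 1, the first 4 counts were 21, 13, 13 and 9, with *Mapk8* lower, where 4056 of all 17718 genes tested rose. The leucine zipper partners then had 7 higher and 1 lower and the heat shock genes 5 and 4.

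The patterns over the 16 cultures were also compared gene by gene, by Pearson's r of log2(CPM + 1) against 13536 genes with a mean of at least 1 CPM. The closest to *Fos* were *Trib1* (r = 0.994), *Ncoa3* (r = 0.987) and *Tacc2* (r = 0.986). The closest to *Egr1* were *Rap2a* (r = 0.976), *Sdc1* (r = 0.975) and *Rap2b* (r = 0.972), and the closest to *Fosl1* were *Krt8* (r = 0.976), *Krt19* (r = 0.976) and *F11r* (r = 0.971). These points share the difference between the groups and the position of control culture 1, so the values are descriptions. Between members, r was taken over the same 16 cultures from deviations from the group means, which leaves out the group difference but not the position of control culture 1. Of the 45 pairs, 35 were positive and the median r was 0.354. The highest were *Fos* with *Egr1* (r = 0.899) and *Fos* with *Fosl2* (r = 0.872), and the lowest was *Fosb* with *Fosl2* (r = −0.478). *Fosb*, which rests on few counts, was negative in 8 of its 9 pairs, and of the other pairs *Junb* and *Jund* were negative with *Ier2*, at −0.339 and −0.0817. *Fos* had an r of 0.159 with *Junb* and 0.0461 with *Jund*, while *Junb* and *Jund* had 0.722 with each other.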

How the data were processed

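Per the labels, the authors purified poly-A mRNA of 16 enteroid cultures and prepared libraries without a stated strand mark, so overlapping antisense genes cannot be told apart. Per the submitters' processing notes, STAR 2.5, TopHat and HTSeq 0.6.1 were named with the builds GRCm38 and mm10. The deposited gene table holds raw counts, the deposited FPKM table holds values per gene length computed by the authors, and the count table also lists gene length. Levels are CPM on the TMM scale of all 16 libraries. Groups were compared in pairs with edgeR 4.0.16 (R 4.3.3), by the quasi-likelihood F test with genes at 10 or more counts in at least 2 of the 8 libraries, Benjamini-Hochberg adjustment over all genes tested and a threshold of 0.05. DESeq2 1.42.0 and limma 3.58.1 on log2(FPKM + 1) and log2(FPKM + 0.1) were alternatives, with other scalings, filters, a replicate block, a gene length correction and fits that left out 1 culture. Intervals are 95% intervals of the edgeR estimate. With 4 cultures per group, p-values measure the spread between cultures.

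Replicate numbers were treated as names. Correlations of deviations between same-numbered cultures ran from -0.21 to 0.58 and were not over 0.1 in every pair of any comparison. Between MYO5B(G519R) and MYO5BΔIEC all were positive, at 0.13, 0.07, 0.47 and 0.58 for cultures 1 to 4. Whether same-numbered cultures shared a source was not tested. Members and lists were chosen with earlier results of these data known. All 10 members are described in every comparison. From each other list, up to 4 genes with the largest absolute log2 fold change past the threshold in MYO5BΔIEC against control, at a mean of at least 1 CPM, were named. Some genes picked by this rule are not reported here. For likeness, the 3 genes with the highest r were named. The fits were tested on simulated data.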

Additional observations from a re-analysis of the deposited data

Results flagged for a closer look

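In groups of 4 cultures, 40 sets of values were examined for a culture far from the other 3 (Dixon's test at the 95% level), and 6 had one. Chance gives such a value in about 1 of 20 sets. Control culture 1 was high for 4 members, with *Fos* at 28.8 CPM, *Fosl2* at 112 CPM, *Egr1* at 24.1 CPM and *Ier2* at 157 CPM. MYO5B(G519R) culture 3 was high for *Egr1*, at 43.8 CPM. MYO5B(G519R) culture 4 was low for *Junb*, at 94.0 CPM, and it was the lowest of its group for 4 of the 10 members. That rank was not counted over all genes.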

How the results depend on the processing

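The number of members called, 6 in MYO5BΔIEC, 6 in MYO5B(G519R) and 7 in Compound-1-treated MYO5BΔIEC against control, stayed within 1.5 times under every alternative. The range with 1 culture left out was 4 to 8, 4 to 9 and 6 to 9, and the counts of 0 for the other comparisons stayed at 0. With the replicate block, which the numbering does not justify as a pairing, the counts were 6, 7 and 7, and *Ier2* in MYO5B(G519R) changed sign to 0.00597. With DESeq2 they were 7, 7 and 7. Over single members and all comparisons, 816 alternative values kept direction and call, 24 lost the call, 16 gained it and 26 changed sign. The block cost *Jund* its call in MYO5BΔIEC (edgeR adjusted p = 0.059) and gave *Jun* one in both models (edgeR adjusted p = 0.0396 and 0.0405). Sign changes were confined to *Ier2* against control and to members near 0 in the other comparisons. *Ier2* turned positive with the gene length trend removed, at 0.0669 in MYO5BΔIEC and 0.0589 in MYO5B(G519R), and in MYO5B(G519R) with limma, at 0.0280 and 0.0301 for the FPKM pseudocounts of 1 and 0.1. Without control culture 1 it was 0.28 and 0.36. With 1 culture left out, *Ier2* ranged from −0.35 to 0.28, from −0.27 to 0.36 and, in treated cultures against control, from −0.12 to 0.52. In treated against untreated MYO5BΔIEC, *Fosb* ranged from −0.23 to 0.15 and *Egr1* from −0.0440 to 0.275. Between the models, *Jun* ranged from −0.0810 to 0.0900, *Junb* from −0.19 to 0.0445, *Ier2* from −0.0446 to 0.242 and *Ier3* from −0.25 to 0.13, and with the length trend removed *Jun* was −0.0231 and *Ier2* −0.00689. The cause was not tested. Depth limits *Fosb*, at 6 to 23 counts.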
